A study of Mus musculus with 6 samples.

Results

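The Bcl2 family and caspases in mouse oocytes were examined through 9 named genes: the anti-apoptotic genes Bcl2, Mcl1, Bcl2l1 and Bcl2l10 and the pro-apoptotic genes Bcl2l11, Bax, Bak1, Bid and Casp2. Every probe set (the group of short probes that reports on a transcript) whose array annotation gave exactly 1 of these symbols was taken. This gave 16 of the 21646 tested probe sets and covered 5 of the 9 genes: 6 probe sets for Mcl1, 3 for Bcl2l1, 1 for Bcl2l10, 5 for Bcl2l11 and 1 for Casp2. Bcl2, Bax, Bak1 and Bid were not analysed here, so both pore-forming effectors and Bid are outside every comparison that follows.

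Proteins of the Bcl2 family decide at the outer mitochondrial membrane whether a cell starts apoptosis. Anti-apoptotic members hold the effectors Bax and Bak1 and the BH3-only proteins, such as that of Bcl2l11, in check, and when the effectors open pores in the membrane, released cytochrome c activates caspases. In the ovary these proteins take part in deciding which germ cells survive, and ovulated eggs that are not fertilised end by apoptosis or fragmentation.

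The study compared fully grown mouse oocytes at the germinal vesicle (GV) stage, arrested in meiotic prophase, with mature oocytes arrested in metaphase of meiosis II (MII). All oocytes came from mice aged 22 to 24 days that had received 5 IU of equine chorionic gonadotropin, which drives follicle growth. Strain and genotype are not stated in the labels. GV oocytes were taken from large antral follicles 44 to 46 h later, stripped of cumulus cells by pipette and kept from maturing with 5 µM milrinone, a blocker of the oocyte's phosphodiesterase; MII oocytes were taken from oviducts 14 h after 5 IU of human chorionic gonadotropin, freed of cumulus cells with hyaluronidase, and chosen for a visible polar body. Each stage had 3 biological replicates of 300 oocytes, and 10 ng of total RNA from each was amplified and hybridised to 1 array. Equal RNA was labelled from each sample, so the values describe a transcript's share of the labelled RNA and not its amount per oocyte. In such bulk samples fewer cells of a type and less RNA per cell cannot be told apart.

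The values are those the authors deposited, on a log2 scale from 1.85 to 13.3, so that a step of 1 is a factor of 2. The number of arrays limits their precision. Over probe sets, correlations ran from 0.988 to 0.991 within a stage and from 0.885 to 0.906 between stages. Array medians were 6.09 to 6.12 in GV and 5.47 to 5.49 in MII oocytes. All 12 oocyte marker genes lay, on average, above the median probe set (5.84). As deposited, 7 of these 12 were called lower and 2 higher in MII oocytes (calls as defined below), against 37.8% and 10.5% of all genes. The list's mean level per array was 10.55 to 10.67 in GV and 9.42 to 9.57 in MII oocytes. Of 10 granulosa and cumulus markers 6 were measured, and 4 of these were called lower and 0 higher. Their mean levels were 5.28 to 5.34 in GV and 4.53 to 4.69 in MII oocytes. On average, 2 of the 6 lay above the median probe set. All 5 measured genes of cumulus expansion lay below it, at 2.72 to 2.91 in GV and 2.79 to 2.92 in MII oocytes. The part of residual cumulus RNA in the results was not tested.

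As deposited, the transcripts of the anti-apoptotic genes Bcl2l1 and Mcl1 and of the pro-apoptotic Casp2 were lower in MII oocytes, by 1.54- to 1.76-fold at the brightest probe set of each gene. Bcl2l10, an anti-apoptotic relative abundant in oocytes, and the brightest probe set of Bcl2l11 were not called. Of the 16 member probe sets 5 were called lower and 1 higher, where a call is a Benjamini-Hochberg adjusted p under 0.05 by limma, a linear model with moderated variances fitted to all tested probe sets. The share over all probe sets was 34.1% lower and 10.9% higher (45.0% in either direction), against 37.5% of the members' probe sets in either direction, so that the members' share was not above the background. By the brightest probe set of each gene, 3 of 5 members were called lower and 0 higher (limma; 0 higher at an unadjusted p under 0.05 or with no moderation), against 37.8% and 10.5% of all 11429 genes (48.3% in either direction). The median log2 difference was -0.32 over the member probe sets and -0.15 over all probe sets. In 8 of the 16 the values of the stages did not overlap, as in 54.0% of all probe sets.

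**Figure D1:**
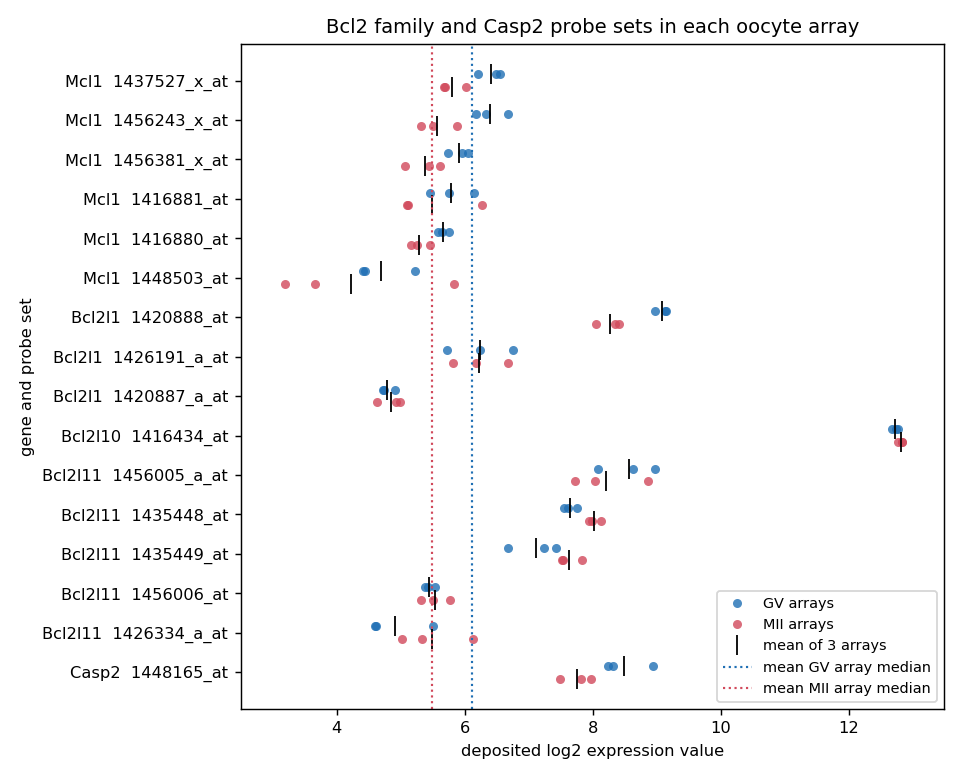
Deposited log2 value (horizontal axis) of each of the 16 probe sets (rows) in the 3 GV arrays (blue) and 3 MII arrays (red), with the mean of each stage as a black tick and the mean of the array medians of each stage as dotted lines. Bcl2l10 lies at 12.7 to 12.8 in all 6 arrays, near the top of the scale, while Bcl2l1 1420888_at and Casp2 lie higher in every GV array than in any MII array.

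These calls rest on the scale between arrays. With array medians made equal, which moved the median difference of all probe sets up by 0.62, 0 member probe sets were called lower and 6 higher: Bcl2l10, 4 of the 5 of Bcl2l11 and 1 of Bcl2l1. The shares over all probe sets on that scale were 55.5% higher and 19.9% lower. After a further quantile normalization (a shift of 0.34), 0 were lower and 5 higher, the 4 of Bcl2l11 and the same 1 of Bcl2l1, against 34.8% higher and 22.1% lower over all probe sets. With the array's hybridization control features, made for labelled bacterial RNAs, set equal (a shift of -0.41), 5 were lower and 0 higher, against 33.2% and 0.480% of all probe sets. With its poly-A control features, made for bacterial transcripts carried through labelling, set equal (a shift of -0.87), 13 were lower and 0 higher, against 84.9% and 0.300%. Under each of the 4 scalings the members' share in the direction of their calls was below that of all probe sets. The falls of Bcl2l1, Mcl1 and Casp2 are therefore falls on the scale as deposited and on the scales of both control sets, and none of the 3 was called with equal medians or after quantile normalization.

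**Figure D2:**
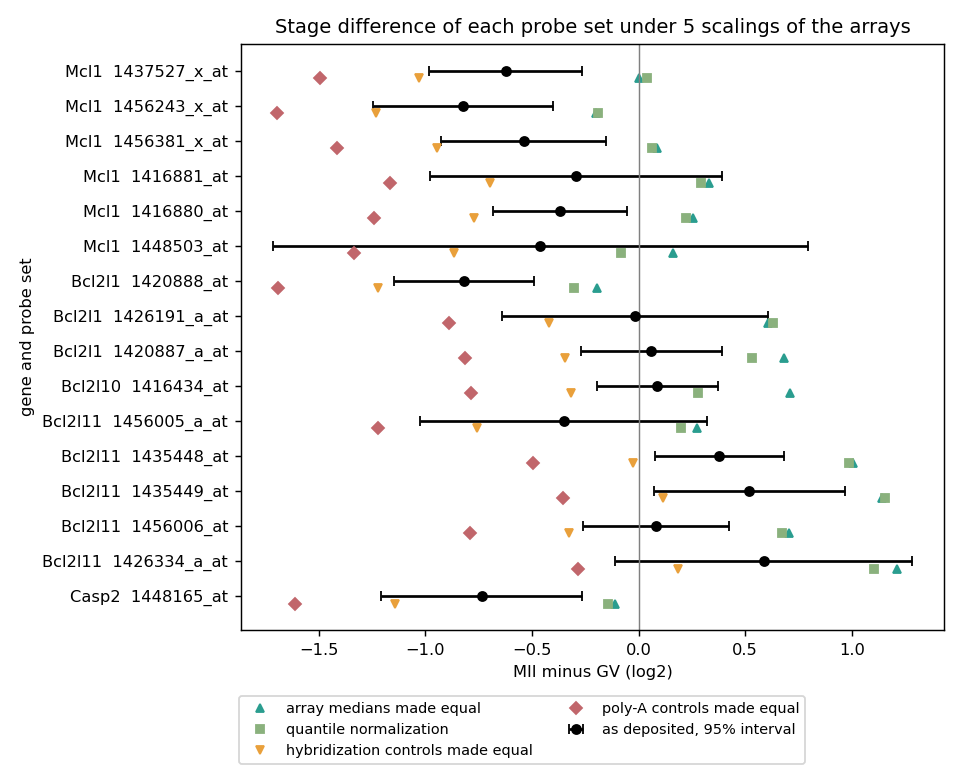
Difference between MII and GV oocytes (log2, horizontal axis) for each probe set (rows): black points with 95% intervals are as deposited, and coloured markers are the differences under 4 other scalings of the arrays. Differences below 0 are lower in MII oocytes: 10 of the 16 lie there as deposited, 4 with equal array medians and all 16 with equal poly-A controls.

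Bcl2l1 encodes Bcl-x, whose long form guards mitochondria, and mice with reduced Bcl-x lose germ cells. Its brightest probe set, 1420888_at, read 9.15, 9.13 and 8.98 in the GV arrays and 8.05, 8.35 and 8.41 in the MII arrays. Every MII value lay below every GV value. The means were 9.09 ± 0.09 and 8.27 ± 0.19 (SD, n = 3), a difference of -0.82 ± 0.15 (SE), or 1.76-fold, with an adjusted p of 0.0012 (limma, Benjamini-Hochberg). The call held without each array in turn. The difference was -0.30 after quantile normalization and -0.19 with equal array medians, neither called.

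The other probe sets of Bcl2l1 did not follow. The probe set 1426191_a_at read 6.75, 5.72 and 6.24 in GV and 6.17, 6.68 and 5.81 in MII oocytes, and differed by -0.02 (95% interval -0.64 to 0.61). The probe set 1420887_a_at, which lay below the median of all 6 arrays, differed by 0.06 (95% interval -0.27 to 0.39) as deposited and was called higher (0.68) once medians were equal but lower (-0.81) once poly-A controls were. Which transcript forms each probe set matches was not examined. Taken within each array, which no shift of a whole array can move, 1420887_a_at gained 0.88 on 1420888_at between the stages, without overlap between GV and MII arrays (exact permutation p = 0.10, 2-sided, the smallest that 3 against 3 arrays allow; 0.37 adjusted over 11 such pairs within genes, a comparison added after the values were seen). The mean of the 3 probe sets of Bcl2l1 differed by -0.26 ± 0.15 (SE) and was not called (adjusted p = 0.17, limma).

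Mcl1 encodes a short-lived anti-apoptotic protein that is rapidly made and degraded, and mice whose oocytes lack it lose them early. All 6 of its probe sets differed below 0 as deposited, by -0.29 to -0.82, and 3 were called lower. The brightest, 1437527_x_at, read 6.50, 6.55 and 6.20 in GV and 5.67, 6.02 and 5.69 in MII oocytes, a difference of -0.62 ± 0.16 (SE; adjusted p = 0.0095, limma). The probe set 1456243_x_at read 6.34, 6.67 and 6.17 in GV and 5.50, 5.89 and 5.32 in MII oocytes, a difference of -0.82 ± 0.19 (adjusted p = 0.0051, limma). In both, the highest MII value lay below the lowest GV value.

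The third call was 1456381_x_at, at -0.54 ± 0.17 (SE; adjusted p = 0.028, limma), and it was lost without GV replicate 1 (-0.52), GV replicate 3 (-0.47) or MII replicate 3 (-0.38). The 3 called probe sets have names ending in _x_at, a type that can match more than one transcript, and the array annotation gives them no accession. Of the 3 named _at, 1416880_at differed by -0.37 with no overlap between stages (adjusted p = 0.056, limma; -0.45 and called without MII replicate 3), 1416881_at by -0.29 and 1448503_at by -0.46. The last 2 were set by MII replicate 1, which read 6.27 and 5.83 where the other MII arrays read 5.11 and 5.09, and 3.19 and 3.66. Without that array, 1416881_at differed by -0.68 and 1448503_at by -1.26, and both were called lower, while without MII replicate 2 the latter was at 0.06. The signal was weak: 4 of the 6 probe sets lay, on average, below the median probe set. The sign also depends on the scale, since with equal array medians 4 of the 6 differed above 0, by 0.08 to 0.33, and the brightest differed by -0.0002.

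Bcl2l10, known as Diva or Boo, was named for its likeness to Bcl2 and is expressed mainly in ovary and testis; both anti- and pro-apoptotic activities have been described for the mouse protein, and it is counted here with the former. Its only probe set, 1416434_at, read 12.68, 12.77 and 12.74 in GV and 12.77, 12.84 and 12.84 in MII oocytes. The stages overlapped and the 6 values spanned a narrow range close to the highest value of the arrays, 13.3. The difference was 0.09 (95% interval -0.20 to 0.37; adjusted p = 0.62, limma). The call turned with the scale: equal array medians gave a called rise (0.71) and equal poly-A controls a called fall (-0.79), while quantile normalization gave 0.28 and equal hybridization controls -0.32, neither called.

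Bcl2l11 encodes Bim, a BH3-only protein that binds the anti-apoptotic members and can activate the effectors. Its 5 probe sets went both ways. The brightest, 1456005_a_at, read 8.97, 8.08 and 8.64 in GV and 8.87, 8.04 and 7.72 in MII oocytes, overlapped between stages and differed by -0.35 (95% interval -1.02 to 0.32). By contrast 1435448_at read 7.76, 7.56 and 7.62 in GV and 7.94, 8.14 and 7.99 in MII oocytes, all MII values above all GV values, and rose by 0.38 ± 0.14 (SE; adjusted p = 0.044, limma).

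That rise was close to the threshold. It was no longer called without GV replicate 2 (0.34) or 3 (0.36), or without MII replicate 1 (0.42), 2 (0.32) or 3 (0.39), and with equal hybridization or poly-A controls it was at -0.03 and -0.49, not called. The probe set 1435449_at, which the annotation credits to the same accession, read 7.42, 6.68 and 7.24 in GV and 7.53, 7.84 and 7.54 in MII oocytes, without overlap, and differed by 0.52 (95% interval 0.07 to 0.97; adjusted p = 0.059, limma). It was called higher without GV replicate 1 (0.67), after quantile normalization (1.16) and with equal array medians (1.14), and was at -0.35 with equal poly-A controls. The remaining pair differed by 0.08 (1456006_at) and 0.59 (1426334_a_at), neither called, although the latter was called higher without GV replicate 3 (0.89). Within each array, 1435449_at gained 0.87 and 1426334_a_at gained 0.94 on 1456005_a_at, both without overlap between stages (exact permutation p = 0.10 for each, 0.37 adjusted over the 11 pairs). The mean over the 5 probe sets differed by 0.24 ± 0.16 (SE; adjusted p = 0.22, limma).

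Casp2 encodes caspase-2, an initiator caspase activated on a platform of Pidd1 and Cradd, and mice without it keep more oocytes. Its only probe set, 1448165_at, read 8.94, 8.31 and 8.23 in GV and 7.97, 7.82 and 7.49 in MII oocytes. GV replicate 1 stood above the other GV arrays, and no MII value reached the lowest GV value. The means were 8.49 ± 0.39 and 7.76 ± 0.24 (SD, n = 3), a fall of 0.74 ± 0.21 (SE), or 1.67-fold (adjusted p = 0.016, limma). The call was lost without MII replicate 3 (-0.60, adjusted p = 0.064, limma), without moderation of the variance (adjusted p = 0.11), after quantile normalization (-0.15) and with equal array medians (-0.11).

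Anti- and pro-apoptotic members were compared first by their calls as deposited, which a shift between arrays can move. With equal array medians 0 of the 16 probe sets were called lower and 6 higher. Among the probe sets, 4 of 10 anti-apoptotic ones were called lower and 0 higher by limma (5 of the 10 did not overlap between stages), and of 6 pro-apoptotic ones 1 was called lower and 1 higher (3 did not overlap). The shares over all probe sets were 34.1% lower, 10.9% higher and 54.0% without overlap, so the anti-apoptotic counts were near the background, and the difference between the sides in these counts was not tested. The median difference was -0.42 over the 10 and 0.23 over the 6. The second of these medians mostly describes Bcl2l11, which supplies 5 of the 6, and probe sets of 1 gene are not independent. Both sides were then compared within each array, where a shift of the whole array cancels, with 1 probe set per gene. On each array the mean of the 2 pro-apoptotic genes was subtracted from that of the 3 anti-apoptotic genes. This gave 0.49, 1.29 and 0.88 in GV and 0.41, 1.14 and 1.37 in MII oocytes. The stages overlapped, and the mean moved by 0.09, less than the SD of 0.40 within GV and 0.50 within MII arrays; this value is a description, with no test. With the mean of each gene's probe sets it moved by 0.02.

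**Figure D3:**
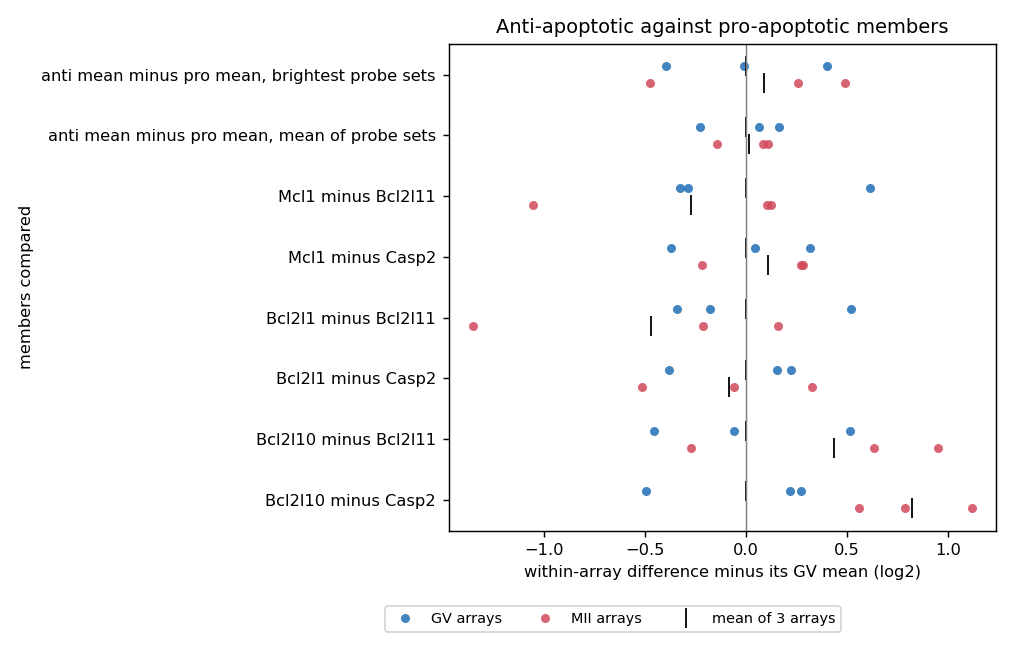
Within-array difference (log2, horizontal axis, set to 0 at its GV mean) between anti-apoptotic and pro-apoptotic members for the means over genes and for each of the 6 pairs of genes (rows), in the 3 GV arrays (blue) and 3 MII arrays (red), with means as black ticks. GV and MII arrays overlap in every row but that of Bcl2l10 minus Casp2, which moved up by 0.82.

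Of the 6 pairs of an anti- and a pro-apoptotic gene, also compared after the values were seen, 1 separated the stages. Bcl2l10 minus Casp2 was 3.74, 4.46 and 4.51 in GV and 4.80, 5.03 and 5.35 in MII oocytes, so that Bcl2l10 gained 0.82 on Casp2 (exact permutation p = 0.10, 2-sided, the smallest possible; 0.60 adjusted over the 6 pairs). As deposited, most of that was the fall of Casp2 by 0.74, Bcl2l10 itself moving by 0.09. With equal array medians Bcl2l10 rose by 0.71 and Casp2 was at -0.11, so the split between the genes depends on the scale. Whether the signal of Bcl2l10, near the top of the scale, could have risen further was not tested. Bcl2l10 gained 0.44 on Bcl2l11, with overlap. Bcl2l1 moved by -0.47 against Bcl2l11 and by -0.08 against Casp2, and Mcl1 by -0.27 and 0.11, all 4 with overlap between stages (exact permutation p of 0.50 to 0.80; adjusted p = 0.80). The levels in these differences come from different probe sets, and only their change between stages can be read.

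Around the members, 46 of 66 other genes of the apoptosis pathway were measured, each by its brightest probe set, and by limma 17 were lower and 5 higher in MII oocytes, 37.8% and 10.5% being the shares over all genes. Their median log2 difference was -0.15, against -0.20 over all genes. Signals under the array medians may lie near background, of which no measure was used here. With equal array medians 52.2% of all genes were called higher and 22.5% lower, the background for the counts on that scale given with the lists that follow.

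**Figure D4:**
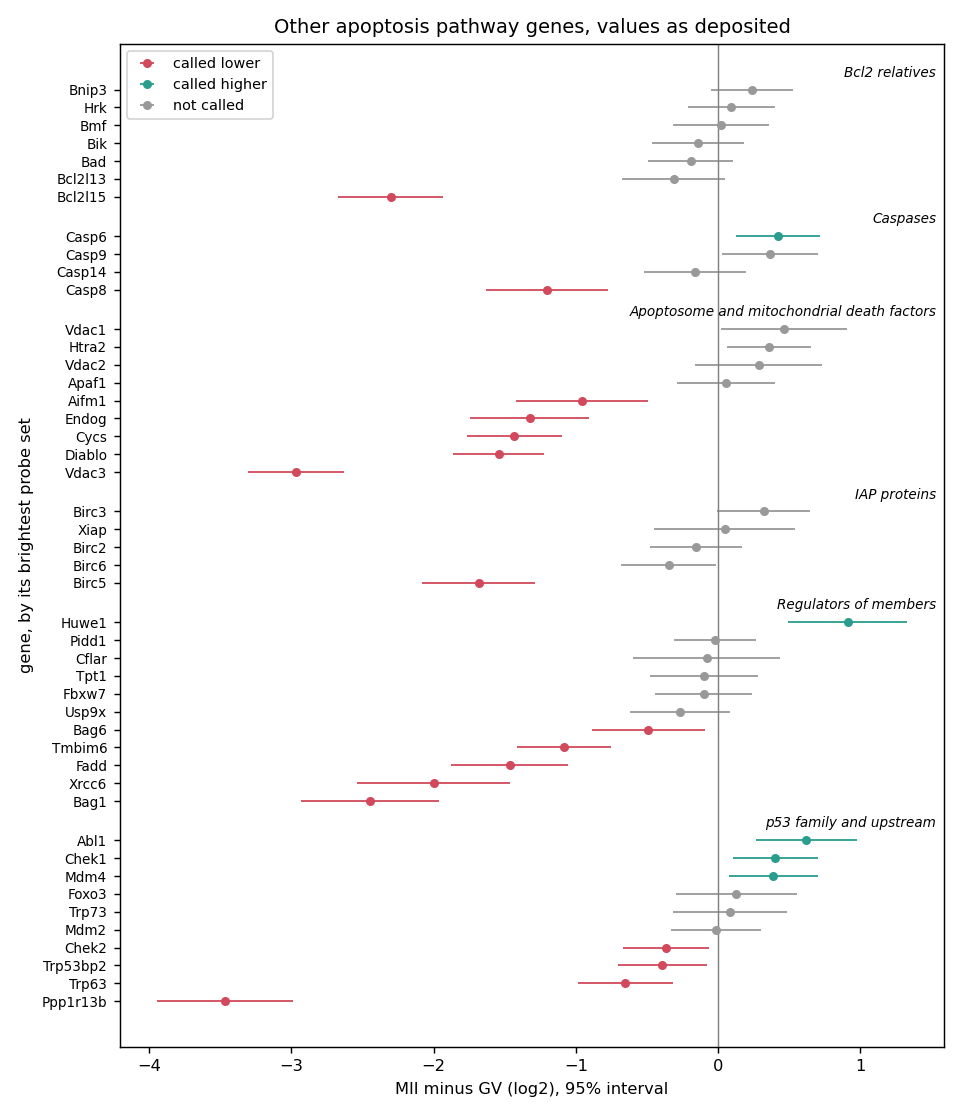
Difference between MII and GV oocytes as deposited (log2, horizontal axis, with 95% intervals) of 46 pathway genes (rows), grouped by list, in red where called lower, green where called higher and grey where not called. The steepest falls are those of Ppp1r13b (-3.47) and Vdac3 (-2.97); the 5 calls above 0 reach 0.91 at Huwe1, and with equal poly-A controls none of these 5 was called and 4 of them, all but Huwe1, lay below 0.

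Among other relatives of Bcl2, 1 of 7 measured genes was called, lower: Bcl2l15, a little-studied pro-apoptotic relative, fell by 2.30 ± 0.17 (log2, SE; adjusted p = 1.6e-06, limma). It read 4.88, 5.32 and 5.22 in GV and 2.67, 2.79 and 3.04 in MII oocytes, under the array medians throughout. Bcl2l13 differed by -0.31 at its brightest probe set, not called, while another probe set of it was called higher (0.65, adjusted p = 0.0056, limma). With equal array medians 5 of the 7 were called higher.

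Of 4 other caspases measured, Casp8, the initiator recruited by death receptors, was lower in every MII array (4.51, 4.82 and 5.09) than in any GV array (5.73, 6.27 and 6.04) and fell by 1.21 ± 0.19 (SE; adjusted p = 0.00051, limma). Casp6, an executioner, rose by 0.42 ± 0.13 (adjusted p = 0.026, limma), a call lost in 4 of the 6 fits that left out 1 array, each of GV replicates 1 and 3 and MII replicates 1 and 2 (0.38 to 0.42), and at -0.45 with equal poly-A controls. Casp9, which the apoptosome activates, differed by 0.36 (adjusted p = 0.076) and Casp14 by -0.16 (adjusted p = 0.45, both limma).

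Of the 9 factors of the apoptosome and mitochondria, 5 were lower and 0 higher by limma. An unadjusted limma p under 0.05 was found in 7 of the 9, among them Htra2 (0.36) and Vdac1 (0.46), which differed above 0. The share of all genes under that unadjusted p is not given here. Vdac3, a channel of the outer mitochondrial membrane, read 11.33, 11.14 and 11.06 in GV and 8.42, 8.16 and 8.04 in MII oocytes, and fell by 2.97 ± 0.15 (SE; adjusted p = 1.7e-07, limma). Its paralogs differed by 0.46 (Vdac1) and 0.28 (Vdac2, which holds Bak1 at the membrane), neither called, though another probe set of Vdac1 was called higher (0.49). Diablo, which relieves the inhibition of caspases, fell by 1.54 ± 0.14 and Cycs, cytochrome c, by 1.43 ± 0.15 (adjusted p of 9.9e-06 and 2.3e-05, limma). Apaf1, the scaffold of the apoptosome, differed by 0.06 (95% interval -0.29 to 0.40). These 3 falls were called under all 5 scalings, while the list as a whole had 4 lower and 4 higher with equal array medians.

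Of 5 inhibitor of apoptosis genes, Birc5 (survivin, which also serves in the chromosomal passenger complex of dividing cells) fell by 1.68 ± 0.18 (SE; adjusted p = 2.5e-05, limma), from 9.98, 9.98 and 9.89 in GV to 8.08, 8.06 and 8.66 in MII oocytes. The other 4 were not called. Xiap, the direct caspase inhibitor, differed by 0.05 at its brightest probe set, which was under the array medians, and 2 dimmer probe sets of it were called higher.

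Among 11 regulators of the members 5 were lower and 1 higher. Bag1, a co-chaperone that binds Bcl2, fell by 2.45 ± 0.22 (SE), Xrcc6 (Ku70, which can hold Bax in the cytosol) by 2.00 ± 0.24 and Fadd, the adaptor that leads from death receptors to Casp8 and thereby to Bid, fell by 1.47 ± 0.19, with adjusted p of 7e-06, 6.9e-05 and 9.6e-05 (limma). Huwe1, a ubiquitin ligase that marks Mcl1 for degradation, rose by 0.91 ± 0.19 (adjusted p = 0.0026, limma), from 8.93, 9.22 and 9.51 to 10.18, 9.87 and 10.34. That rise was not called with equal hybridization controls (0.51) or equal poly-A controls (0.04). Of the 3 other probe sets of Huwe1, 1 of similar brightness (means of 9.45 in GV and 9.30 in MII oocytes) differed by -0.15, not called. A dim one (3.43 and 2.74) was called lower (-0.68), and the last differed by 0.09. Usp9x, which removes ubiquitin from Mcl1, differed by -0.27 at its brightest probe set, not called, while 2 of its other 6 probe sets were called lower, at -0.54 and -0.58 (adjusted p of 0.0078 and 0.0052, limma). Pidd1, of the caspase-2 platform, differed by -0.02.

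In the p53 family and upstream, 4 of 10 measured genes were lower and 3 higher, as deposited; 6 were higher and 1 lower with equal array medians. Ppp1r13b, which directs p53 to pro-apoptotic promoters, fell by 3.47 ± 0.21 (SE; adjusted p = 5.5e-07, limma) and kept that call under all 5 scalings. Trp63, whose TAp63 form guards resting oocytes against DNA damage, fell by 0.65 ± 0.15 (adjusted p = 0.0051, limma; 0.01 after quantile normalization and -0.03 with equal array medians, neither called). Trp53bp2 fell by 0.39 ± 0.14 (adjusted p = 0.044, limma), a call lost in 5 of the 6 fits without 1 array, all but that without GV replicate 1, and turned to 0.10 after quantile normalization and 0.23 with equal array medians. The kinase gene Abl1 rose by 0.62 ± 0.16, the checkpoint kinase gene Chek1 by 0.40 ± 0.13 and the p53 inhibitor gene Mdm4 by 0.39 ± 0.14 (adjusted p of 0.0096, 0.033 and 0.045, limma), and with equal poly-A controls they were at -0.25, -0.47 and -0.48. Chek1 lost its call in 5 of the 6 fits without 1 array (all but that without GV replicate 1), as did Mdm4. Other probe sets of Chek1 were called higher (0.43, 0.66 and 0.47) and another lower (-1.87). Another probe set of Mdm4 was called lower (-1.93).

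The pattern of Bcl2l1, which had the largest called fall among the members' brightest probe sets, was set against those of all 11428 other genes over the 6 arrays, each centred on its own mean. The most similar were Vrk1, a nuclear kinase, Unk, an RNA-binding zinc finger protein, and Aldh3a2, a fatty aldehyde dehydrogenase, at root mean square distances of 0.044, 0.047 and 0.051 on the log2 scale. They fell by 0.81, 0.74 and 0.78, with the lowest MII value in replicate 1 in each, as in Bcl2l1. No member was called higher at its brightest probe set as deposited, so no pattern of a rise was sought.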

How the data were processed

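Total RNA of 6 oocyte samples was amplified over 2 rounds and hybridised to 1 array each. The deposited values are on the log2 scale and, per the submitters' processing notes, come from RMA and the R package affy; no label states the version, settings or filters. All 6 columns held the same 7077 distinct values, and the table covered part of the array.

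After 56 control features were set aside, MII was compared with GV over 21646 probe sets by limma 3.58.1 in R 4.3.3 (group only, 2-sided, 9.78 total degrees of freedom), with Benjamini-Hochberg adjustment over all of them and a threshold of 0.05. Where 1 value per gene was needed, the single-symbol probe set with the highest mean stood for it. Genes came from the array's annotation (19078 probe sets with 1 symbol, 550 with several, 2018 with none). A RefSeq table of GRCm38.p6 held 11408 of the 11429 symbols and was used for names alone.

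The members and lists were chosen with earlier results of these data known. All members were named; from each other list, up to 3 called genes with the largest rise and 3 with the largest fall, or the 2 brightest where none was called, besides single genes with a stated tie to a member, chosen after their values were seen. The alternatives were 4 scalings, a filter on dim probe sets, no moderation, a replicate block, other probe sets per gene and leaving out each array. The within-array comparisons of 6 pairs of genes and of 11 pairs of probe sets of 1 gene were added after the values were seen; the latter began as 4 pairs picked by their values and were then widened to every other probe set of a gene against its brightest, so their p-values do not stand as independent tests.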

Additional observations from a re-analysis of the deposited data

How the results depend on the processing

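The scale between arrays changed the members' results most. With array medians made equal, 6 member probe sets were called higher and 0 lower, 1 and 0 genes by the brightest probe set, and 26 other pathway genes higher and 12 lower, against 52.2% and 22.5% of all genes. After quantile normalization the counts were 5 and 0 probe sets, 0 genes lower, and 20 pathway genes higher and 13 lower (34.5% and 24.5% of genes). With hybridization controls made equal 0 probe sets and 0 pathway genes were higher (0.480% and 0.437% of all). On that scale 5 probe sets, 3 genes and 15 pathway genes were lower, against 33.2% of all probe sets and 36.7% of all genes. With poly-A controls made equal 0 probe sets were higher and 13 lower, 5 genes lower, and 0 pathway genes higher and 40 lower (86.5% of genes). Other settings that moved a count by over 1.5 times were no moderation (2 member probe sets lower), plain _at probe sets (1 gene higher, Bcl2l11 at 1435448_at) and testing only probe sets above the median, which left fewer genes to test (9 pathway genes lower). Leaving out 1 array gave 0 to 2 probe sets higher, 4 to 7 lower, 2 to 3 genes lower, 2 to 6 pathway genes higher (2 without GV replicate 3 or MII replicate 2, 3 without GV replicate 2 or MII replicate 1) and 14 to 16 lower. For these other settings and the fits without 1 array no share over all probe sets or genes is given here. The anti- minus pro-apoptotic change stayed within the spread of the arrays, from -0.11 to 0.37 without 1 array and from -0.18 to 0.28 without 1 member, and was -0.02 after quantile normalization.

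Signs turned as follows. With equal medians, Mcl1 was at 0.084 (1456381_x_at), 0.33 (1416881_at), 0.25 (1416880_at) and 0.16 (1448503_at), Bcl2l1 1426191_a_at at 0.61, Bcl2l11 1456005_a_at at 0.27 and Trp53bp2 at 0.23. After quantile normalization, Mcl1 was at 0.041 (1437527_x_at), 0.064 (1456381_x_at), 0.29 (1416881_at) and 0.22 (1416880_at), Bcl2l1 1426191_a_at at 0.63, Bcl2l11 1456005_a_at at 0.20, Trp63 at 0.014 and Trp53bp2 at 0.10. With hybridization controls equal, Bcl2l1 1420887_a_at was at -0.34, Bcl2l10 at -0.32, Bcl2l11 at -0.026 (1435448_at) and -0.32 (1456006_at), Chek1 at -0.0042 and Mdm4 at -0.016. With poly-A controls equal, Bcl2l1 1420887_a_at was at -0.81, Bcl2l10 at -0.79, Bcl2l11 at -0.49 (1435448_at), -0.35 (1435449_at), -0.79 (1456006_at) and -0.28 (1426334_a_at), Casp6 at -0.45, Abl1 at -0.25, Chek1 at -0.47 and Mdm4 at -0.48. Without 1 array, Mcl1 1448503_at ran from -1.26 to 0.056, Bcl2l1 1426191_a_at from -0.27 to 0.24 and 1420887_a_at from -0.013 to 0.17, and Bcl2l11 1456006_at from -0.040 to 0.19. The cause of these differences between scalings was not tested.

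Titles number 2 of the 3 arrays of each stage. Same-numbered arrays did not deviate together (correlations of 0.03 for both numbers). That cannot show whether they were collected or processed together, which the titles do not state. With the replicate block over these arrays, 1 member probe set was higher and 5 lower, and 4 pathway genes were higher and 14 lower. These were partly other probe sets: Bcl2l11 1435448_at (0.48) and Mcl1 1456381_x_at (-0.56) lost their calls, and Bcl2l11 1435449_at (0.73) and Mcl1 1448503_at (-1.39) were called instead. Casp6, Chek1 and Trp53bp2 lost theirs, and Bcl2l1 1426191_a_at turned to 0.26. The fit with the block also left out replicate 1 of both stages, so these changes cannot be credited to the block. Mcl1 1448503_at was already called lower without MII replicate 1 alone (-1.26), and Bcl2l11 1435449_at higher without GV replicate 1 alone (0.67). No share over all probe sets or genes is given here for this fit, so its counts have no background beside them. Precision is limited by 3 arrays per stage, and 7 of the 16 probe sets lay, on average, under the median probe set.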
